A study of Mus musculus with 8 samples.

Results

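The 9 genes described here, *Bcl11b*, *Fezf2*, *Tbr1*, *Sox5*, *Cux1*, *Cux2*, *Pou3f2*, *Pou3f3* and *Foxp1*, encode transcription factors that mark the projection neurons of the cerebral cortex. They were taken by name from a list drawn up with earlier results of these data known, no measured value entered the selection rule, and each was found once among the 33971 genes of the table. For the experiment, poly-A RNA from whole brains of E14.5 wild-type mouse embryos was sequenced in bulk. Pregnant wild-type mothers had received either a choline-deficient diet (CDD), which the methods start on the day of mating although the sources differ on its start, or a normal chow diet (ND). There were 4 brains per diet, numbered as replicates 1 to 4 of each. All embryos were wild-type, and the number of mothers and litters is not stated, so brains of one diet may be littermates and the p-values measure the spread between these samples. Because the whole brain was used, cortex is one region among several in each sample, and fewer cells of a type cannot be told apart from less RNA per cell.

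Projection neurons are the excitatory neurons that send axons out of their cortical area, and they are born in an inside-out order, deep layers first and upper layers later. *Fezf2* directs subcortical projection neuron fate, and *Bcl11b* (also called Ctip2) acts downstream of it in corticospinal neurons. *Tbr1* specifies corticothalamic neurons of layer 6, and *Sox5* controls the timing of deep-layer and subplate neuron production. *Cux1*, *Cux2*, *Pou3f2* (Brn2) and *Pou3f3* (Brn1) are used as markers of upper-layer neurons and their precursors. *Foxp1* is present in neurons of several layers, so it was kept apart from the 4 deep-layer and the 4 upper-layer genes. None of the 9 genes is limited to the cortex in the embryonic brain: *Bcl11b* and *Foxp1* also mark developing striatal neurons, and the POU genes are widely used by neural progenitors.

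Positions are those listed by the authors, on a mouse genome build not given in the sources used here. *Bcl11b* (ENSMUSG00000048251) lies on chromosome 12 from 107876662 to 107969861, *Fezf2* (ENSMUSG00000021743) on chromosome 14 from 10121574 to 10127669, *Tbr1* (ENSMUSG00000035033) on chromosome 2 from 61633274 to 61644458, and *Sox5* (ENSMUSG00000041540) on chromosome 6 from 143774151 to 144727703. Of the upper-layer genes, *Cux1* (ENSMUSG00000029705) and *Cux2* (ENSMUSG00000042589) lie on chromosome 5, from 136276989 to 136596344 and from 121994429 to 122188165. *Pou3f2* (ENSMUSG00000095139) lies on chromosome 4 from 22482780 to 22488366 and *Pou3f3* (ENSMUSG00000045515) on chromosome 1 from 42734085 to 42742336. *Foxp1* (ENSMUSG00000030067) lies on chromosome 6 from 98902299 to 99499682. All 9 are listed as protein coding.

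The upstream sequences of *Fezf2* and *Sox5* are shown because these were the deep-layer genes with the lowest and the highest log2 fold change, a choice made after the values were seen. Each run is the 250 bases before the transcription start in RefSeq on GRCm38.p6, 5′ to 3′ on the strand of the gene, with CpG dinucleotides in capitals. The *Fezf2* window is chr14:12345866-12346115 and the *Sox5* window chr6:143947107-143947356, both on the minus strand of that build.
Fezf2: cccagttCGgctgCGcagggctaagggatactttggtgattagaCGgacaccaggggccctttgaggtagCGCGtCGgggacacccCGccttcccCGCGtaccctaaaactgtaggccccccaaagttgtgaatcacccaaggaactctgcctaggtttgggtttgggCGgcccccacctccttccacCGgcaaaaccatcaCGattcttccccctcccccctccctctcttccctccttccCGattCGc
Sox5: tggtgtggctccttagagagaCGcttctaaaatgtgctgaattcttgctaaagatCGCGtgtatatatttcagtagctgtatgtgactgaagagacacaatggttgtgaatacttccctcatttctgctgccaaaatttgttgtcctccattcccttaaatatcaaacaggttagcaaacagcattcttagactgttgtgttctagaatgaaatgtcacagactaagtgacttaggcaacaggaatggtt
The *Fezf2* window holds 14 CpG dinucleotides at 61.2% GC and the *Sox5* window 3 at 39.6% GC, where the median over all windows of the RefSeq table is 6.0 CpG. The authors list *Sox5* on the minus strand from 143774151 to 144727703, so its 5′ end is at the higher number. Though the builds may differ, the *Sox5* window lies inside this span. It may thus precede a start within the gene and need not be the promoter of the longest transcript. All 9 genes have at least 1 window in that table, 12 in all. No methylation or chromatin was measured here, so these sequences are given as context for the RNA levels. The authors list *Fezf2* on the plus strand, so its orientation differs between the 2 sources.

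Library totals lay between 31770217 and 43121170 reads, and each of the 9 genes had at least 2006 reads in every brain (*Fezf2* in CDD replicate 2). Within a gene, expression is given as CPM, the reads relative to the scaled library size. Diets were compared with edgeR's quasi-likelihood test over 19367 genes with Benjamini-Hochberg adjustment, and log2 fold changes are CDD over ND. Of all genes tested, 1710 (8.83%) passed an adjusted p of 0.05. CDD replicate 2 stood apart: it held 4984 reads on 28 Hox genes, which mark hindbrain and spinal cord, against 16 to 112 in the other 7 brains, and a summed 119 CPM over 10 hindbrain and spinal cord genes, of which 0 were at 0 in all brains, against 5.09 to 12.3 CPM. How far that tissue content entered the values below was not tested. In a chi-square comparison of read counts between pairs of brains, CDD replicate 4 differed most from each ND brain among the CDD brains. Its values there were 21.4 to 30.8 per degree of freedom.

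None of the 9 identity genes passed the threshold between the diets (0 of 9 in edgeR's test, against the 8.83% of all genes). DESeq2 and limma-voom also called 0 of 9. At an unadjusted p under 0.05 there were 3, *Foxp1*, *Cux1* and *Pou3f2*, where 23.9% of all tested genes had such a p. The fold changes went both ways, with 4 genes above 0 and 5 below, a median of -0.03 over the 9 genes and a median of 0.00 over all genes. The median absolute log2 fold change was 0.10 for the 9 genes and 0.11 for all genes. The CPM of the 2 diets overlapped for 8 of the 9, and 15.0% of all tested genes did not overlap.

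**Figure D1:**
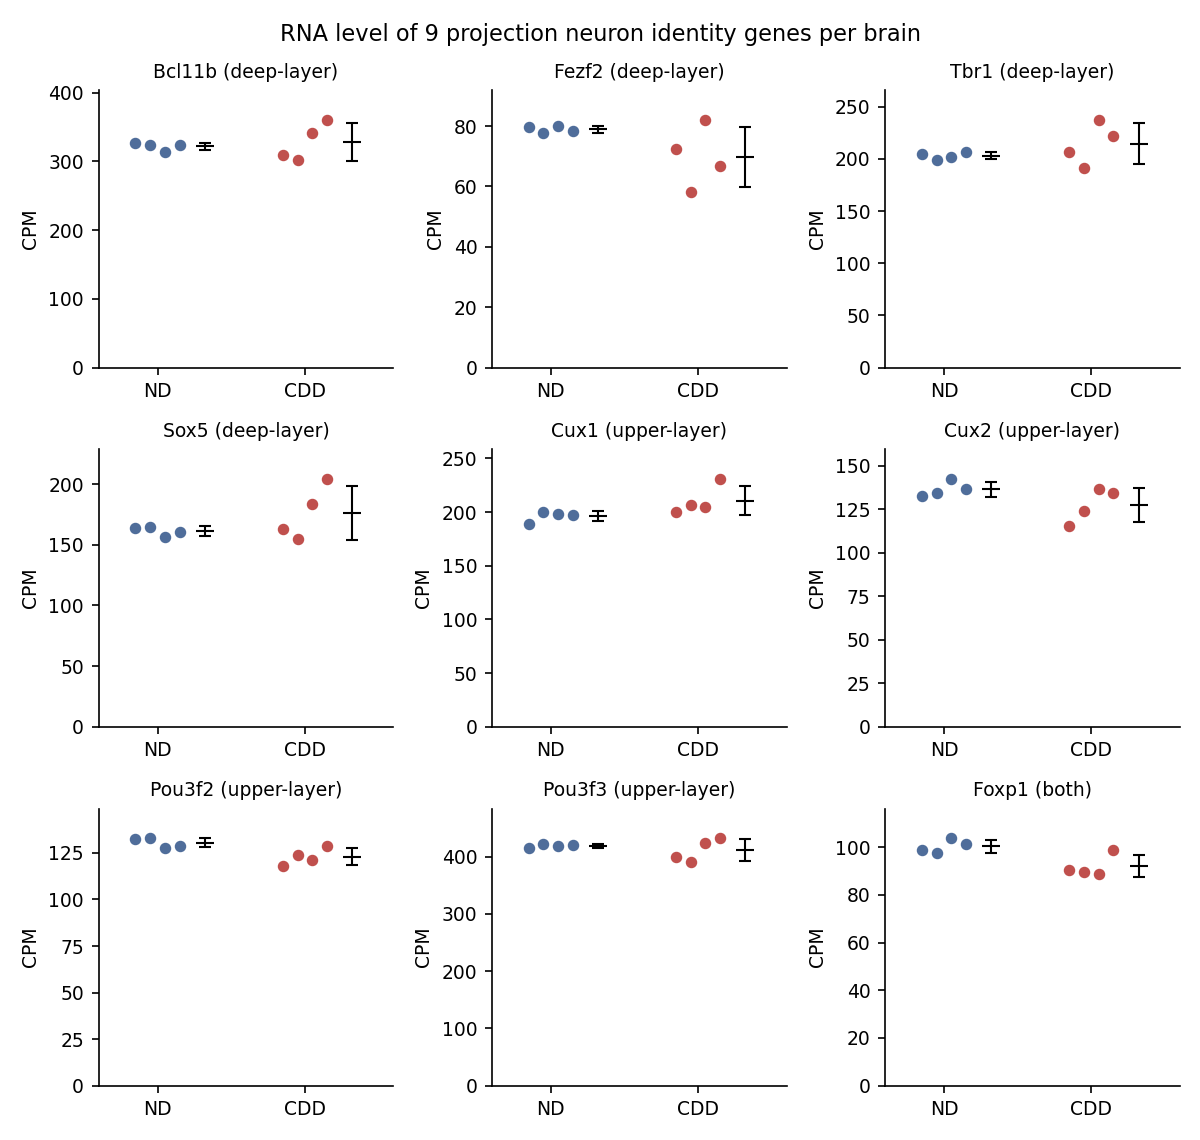
Expression of the 9 genes in each brain, in CPM on the y axis from 0, with ND brains in blue and CDD brains in red (4 each, replicates 1 to 4 from left to right) and the mean ± SD in black. The ND brains lie close together in every panel, and the CDD brains are spread wider for all 9 genes.

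Among the deep-layer genes, *Fezf2* had the log2 fold change farthest from 0, and 3 of 4 CDD brains were below every ND brain. It was at 72.3, 58.1, 81.9 and 66.8 CPM in CDD replicates 1 to 4 and at 79.6, 77.6, 80.1 and 78.4 CPM in ND replicates 1 to 4. CDD replicate 3 was above all ND brains and the other 3 CDD brains were below them, so the diets overlapped through this single brain. CDD brains averaged 69.8 ± 9.98 CPM and ND brains 78.9 ± 1.16 CPM (SD, n = 4 each). The log2 fold change was -0.18 (SE 0.081, 95% interval -0.35 to 0.0012, edgeR adjusted p = 0.213), an interval that runs from -21.8% to 0.084% in percent. Without CDD replicate 3 it was -0.26 with an adjusted p of 0.00697 in the same edgeR test, and without CDD replicate 2, the brain with the Hox reads and the lowest *Fezf2*, it was -0.10 with an adjusted p of 0.350. With no filter on low counts, which brings 33971 genes into the edgeR fit, it was -0.18 with an adjusted p of 0.0109.

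*Bcl11b*, *Tbr1* and *Sox5* shared a pattern over the CDD brains that *Fezf2* did not have: replicates 3 and 4 were above all ND brains. *Bcl11b* was at 308.6, 302.2, 341.4 and 359.8 CPM in CDD replicates 1 to 4 and between 314.1 and 326.1 CPM in ND brains. Replicates 1 and 2 of the CDD group were below the whole ND range for this gene, and replicates 3 and 4 above it. Its means were 328.0 ± 27.3 and 321.7 ± 5.26 CPM (SD, n = 4 each), its log2 fold change being 0.03 (SE 0.054, 95% interval -0.09 to 0.14, edgeR adjusted p = 0.808). Without CDD replicate 4 it was -0.02. *Tbr1* was at 207.0, 191.6, 237.2 and 222.4 CPM in CDD brains and at 204.9, 198.7, 202.3 and 206.3 CPM in ND brains, a log2 fold change of 0.08 (SE 0.054, 95% interval -0.03 to 0.19, edgeR adjusted p = 0.405). For *Tbr1*, CDD replicate 1 was also above the ND brains, and replicate 2 was below them. *Sox5* was at 162.6, 154.6, 183.9 and 204.1 CPM in CDD brains and at 164.0, 164.4, 156.1 and 160.9 CPM in ND brains, a log2 fold change of 0.13 (SE 0.070, 95% interval -0.02 to 0.28, edgeR adjusted p = 0.292). Without CDD replicate 2 the log2 fold changes were 0.07 for *Bcl11b*, 0.13 for *Tbr1* and 0.19 for *Sox5*, with adjusted p of 0.538, 0.143 and 0.0827 in edgeR's test. Other brains moved them the other way: *Sox5* was at 0.05 without CDD replicate 4, and *Tbr1* at 0.03 without CDD replicate 3.

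Of the upper-layer genes, *Cux1* was higher in every CDD brain than in any ND brain, but by a narrow margin. It was at 200.3, 206.7, 204.9 and 230.7 CPM in CDD brains and at 189.3, 200.2, 198.6 and 197.2 CPM in ND brains. The lowest CDD brain and the highest ND brain were nearly equal, and CDD replicate 4 stood above the other 3. The log2 fold change was 0.10 (SE 0.048, 95% interval 0.0021 to 0.20, edgeR adjusted p = 0.199), and 0.05 without CDD replicate 4.

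The other three upper-layer genes had lower means in CDD brains. *Cux2*, the paralog of *Cux1*, was at 115.1, 123.7, 136.3 and 134.5 CPM in CDD brains and at 132.2, 134.4, 142.2 and 136.3 CPM in ND brains. CDD replicates 1 and 2 were below the ND brains and replicates 3 and 4 within their range. The fitted log2 fold change was -0.10 (SE 0.049, 95% interval -0.20 to 0.01, edgeR adjusted p = 0.245), and -0.05 without CDD replicate 1. *Pou3f2* was at 117.9, 124.1, 121.3 and 128.7 CPM in CDD brains and at 132.3, 132.9, 127.9 and 128.7 CPM in ND brains. A single CDD brain, replicate 4, reached the ND range for this gene. The fitted log2 fold change was -0.08 (SE 0.039, 95% interval -0.17 to -0.0017, edgeR adjusted p = 0.199). *Pou3f3* was at 400.0, 390.3, 423.5 and 432.3 CPM in CDD brains and between 415.3 and 421.8 CPM in ND brains. As for *Bcl11b*, CDD replicates 1 and 2 were below the ND range and replicates 3 and 4 above it. The log2 fold change of *Pou3f3* was -0.03 (SE 0.048, 95% interval -0.13 to 0.07, edgeR adjusted p = 0.801).

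*Foxp1* had the smallest p of the 9. It was at 90.6, 89.8, 88.9 and 98.9 CPM in CDD brains and at 98.9, 97.8, 103.8 and 101.4 CPM in ND brains. In 3 of 4 CDD brains it was below every ND brain, and CDD replicate 4 was above 2 of the 4 ND brains. The log2 fold change was -0.13 (SE 0.044, 95% interval -0.22 to -0.03, edgeR adjusted p = 0.0798). Without CDD replicate 4 it was -0.16 with an adjusted p of 0.00968 in edgeR's test.

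**Figure D2:**
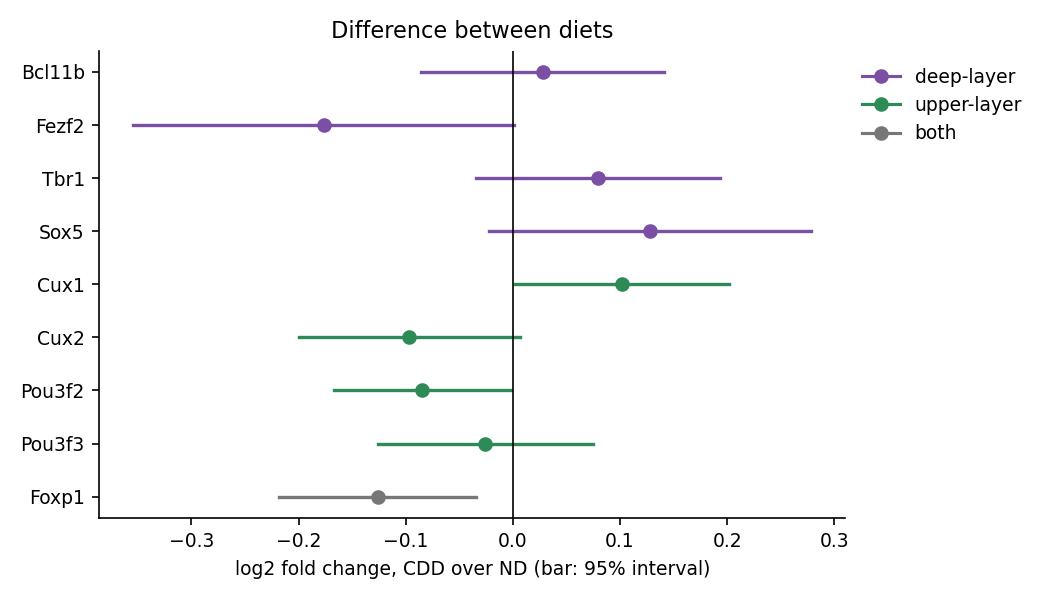
Log2 fold change of CDD over ND on the x axis for each of the 9 genes on the y axis, with its 95% interval from edgeR's fit (4 brains per diet). The intervals lie between -0.35 and 0.28, deep-layer genes (purple) and upper-layer genes (green) both stand on either side of 0, and 0 of 9 passed the adjusted threshold.

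The spread between CDD brains was larger than that between ND brains for all 9 genes. The coefficient of variation of *Fezf2* was 14.3% in CDD and 1.47% in ND brains, that of *Sox5* 12.6% and 2.37%, and that of *Bcl11b* 8.31% and 1.64%. *Pou3f3* varied by 4.77% and 0.685%. Read counting alone would give ND brains 1.94% for *Fezf2* and 0.84% for *Pou3f3*, above the values seen. For *Sox5* and *Bcl11b* it would give 1.35% and 0.959%, below the values seen. The ND spread of some genes thus lay at the counting level, so ratios to it do not measure differences between embryos alone. On the log2 scale the SD in CDD brains was 5.02 times that in ND brains as the median over the 9 genes, against 1.43 times over all tested genes. Among the 3682 tested genes at least as abundant as the lowest of the 9, that median was 2.17, and 87.8% of them had the larger SD in CDD brains. The order of the CDD brains was partly shared: for *Bcl11b*, *Tbr1*, *Sox5*, *Cux2* and *Pou3f3*, both CDD replicates 3 and 4 were above both replicates 1 and 2 (5 of 9 genes, against 13.1% of all tested genes). CDD replicate 2 was the lowest CDD brain for 5 of the 9 genes, and 21.7% of all tested genes had their lowest CDD value there. CDD replicate 4 was the lowest for 0 of the 9 genes but for 31.6% of all tested genes, the largest share. These comparisons of spread and order were chosen after the values were seen and have no test.

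Levels can be compared between genes per length only, so the authors' FPKM are used for this. These are reads scaled by a size factor per library and by the listed gene length. *Pou3f3* was the most abundant of the 9 in ND brains at 53.8 ± 0.380 FPKM (SD, n = 4), followed by *Bcl11b* at 39.4 ± 0.710 and *Tbr1* at 36.8 ± 0.603 FPKM. *Fezf2* followed at 25.7 ± 0.357, *Pou3f2* at 23.2 ± 0.483, *Cux2* at 13.4 ± 0.396 and *Sox5* at 11.2 ± 0.284 FPKM. *Cux1* at 9.74 ± 0.233 and *Foxp1* at 7.26 ± 0.183 FPKM were the lowest. High and low levels thus occurred among both deep-layer and upper-layer genes. In ND brains no neighbours in this order overlapped. The order of the means was the same in CDD brains, where the neighbours *Bcl11b* and *Tbr1* (40.3 ± 3.53 and 39.0 ± 3.64 FPKM), *Fezf2* and *Pou3f2* (22.8 ± 3.23 and 22.0 ± 0.932 FPKM), *Cux2* and *Sox5*, and *Sox5* and *Cux1* overlapped between brains. FPKM uses 1 listed length per gene, so a gene whose brain transcripts are shorter than that length is understated.

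**Figure D3:**
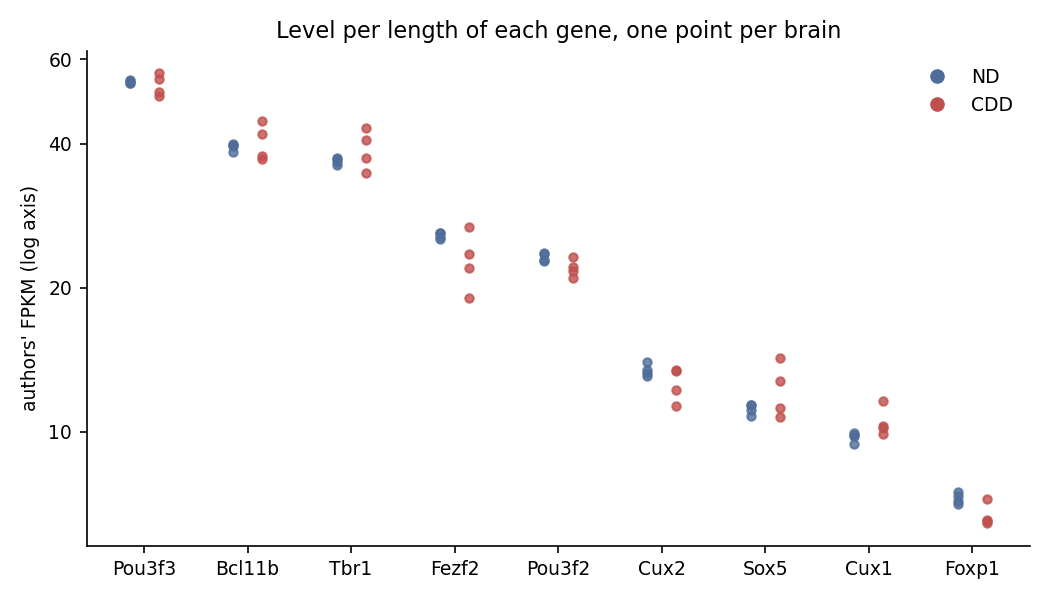
The authors' FPKM of each gene on a log axis, with genes on the x axis in the order of their ND means and 1 point per brain (ND blue, CDD red, 4 each). *Pou3f3* lies highest near 53.8 FPKM and *Foxp1* lowest near 7.26 FPKM in ND brains, and the CDD points are the more dispersed.

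For the contrast of layers, the mean log2 CPM of the 4 upper-layer genes was subtracted from that of the 4 deep-layer genes in each brain. The difference was -0.13, -0.31, -0.06 and -0.17 in CDD replicates 1 to 4 and -0.16, -0.22, -0.23 and -0.20 in ND replicates 1 to 4. The CDD brains enclosed the ND range on both sides. The means were -0.17 ± 0.11 in CDD and -0.20 ± 0.03 in ND brains (SD, n = 4 each), and their difference of 0.04 was below the pooled SD of 0.08. Deep-layer genes alone averaged 7.42 ± 0.14 and 7.41 ± 0.01 log2 CPM, and upper-layer genes 7.58 ± 0.07 and 7.61 ± 0.02 log2 CPM, in CDD and ND brains. The difference between the diets changed with single genes and brains. With 1 gene left out it lay between -0.0019 (without *Sox5*) and 0.10 (without *Fezf2*), with 0.08 without *Cux1*, 0.04 without *Pou3f3*, 0.03 without *Bcl11b*, 0.02 without *Pou3f2* and 0.01 without *Tbr1* or *Cux2*. Without CDD replicate 2 it was 0.08, and without CDD replicate 3 it was -0.0009. The contrast is a summary of chosen genes and was given no test.

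Other known genes of these layers were read beside the 9, as context for them. Which cells their RNA came from in whole E14.5 brains was not measured. The list names therefore do not stand for amounts of upper-layer or deep-layer neurons. Of 13 other upper-layer genes, all tested, 7 fell in CDD brains and 0 rose (4.59% and 4.24% of all tested genes), with a median log2 fold change of -0.20. Those lower were *Inhba*, *Rasgrf2*, *Mef2c*, *Bhlhe22*, *Rorb*, *Lmo4* and *Pou3f1*. *Bhlhe22*, a regulator of cortical area identity, was at 90.2, 85.7, 107.5 and 98.4 CPM in CDD brains and at 124.7, 113.3, 129.0 and 126.5 CPM in ND brains. No CDD brain reached the lowest ND brain, and the log2 fold change was -0.37 (SE 0.063, edgeR adjusted p = 0.00317). *Inhba*, *Rasgrf2*, *Bhlhe22* and *Lmo4* passed in all 8 fits that left out 1 brain. *Pou3f1*, the paralog of *Pou3f2* and *Pou3f3*, and *Rorb*, a layer 4 marker, lost the call without CDD replicate 1 or without ND replicate 1, 3 or 4, and *Mef2c* lost it without any brain other than CDD replicate 3 or ND replicate 2. Over the 8 fits, between 4 and 7 of the 13 genes were lower, with 4 without CDD replicate 1 or without ND replicate 1, 3 or 4.

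Of 15 other deep-layer and subplate genes, 14 were tested, and 4 fell while 1 rose (4.59% and 4.24% of all tested genes), with a median of -0.05, which was -0.02 without CDD replicate 1 and -0.09 without CDD replicate 4. *Ntsr1*, a receptor gene of layer 6 corticothalamic neurons, was at 10.1 ± 1.65 CPM with CDD and at 15.3 ± 0.625 CPM with ND (SD, n = 4 each), its log2 fold change being -0.59 (edgeR adjusted p = 0.00170). *Crym* was at -0.48 and *Ldb2* at -0.32, and these 3 calls held in all 8 fits that left out 1 brain. *Ccn2*, a subplate marker, was at -0.49 and passed in 4 of the 8 fits, failing without CDD replicate 4 or ND replicate 1, 3 or 4. *Otx1* was at 0.23 with an adjusted p of 0.0499 in edgeR's test, its CPM overlapped between the diets, and it passed only without CDD replicate 2 or without ND replicate 2 among the 8 fits. *Tle4*, a layer 6 gene, was at -0.04 and *Foxp2* at 0.09, with adjusted p of 0.594 and 0.559 in edgeR's test. The mean log2 CPM of the listed genes did not overlap between the diets for either layer, at 4.89 ± 0.04 against 5.06 ± 0.01 for the deep-layer and subplate genes and 5.57 ± 0.05 against 5.78 ± 0.05 for the upper-layer genes (CDD against ND, SD, n = 4). Both list means were lower in CDD brains. Their difference, -0.68 ± 0.04 in CDD and -0.72 ± 0.04 in ND brains, overlapped between the diets. So did the contrast of the 4 deep-layer and 4 upper-layer identity genes.

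**Figure D4:**
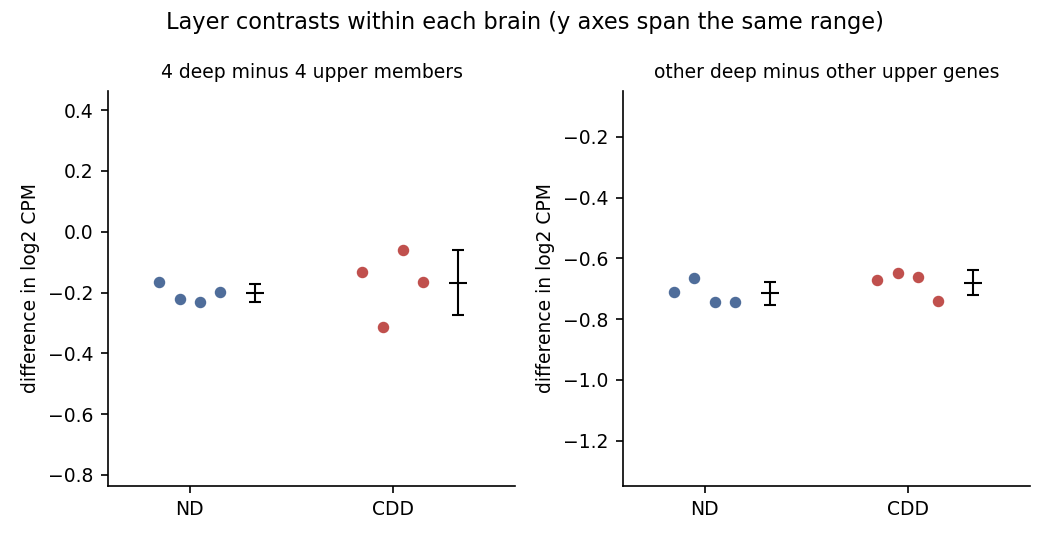
Differences of log2 CPM within each brain on the y axis, for the 4 deep-layer minus the 4 upper-layer genes (left) and for the other deep-layer minus the other upper-layer genes (right), with ND in blue, CDD in red and mean ± SD in black. The diets overlap in both panels, at means of -0.20 and -0.17 and of -0.72 and -0.68 in ND and CDD brains.

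Genes common to cortical projection neurons of all layers were lower in part. Of 8 such genes, 3 fell and 0 rose (4.59% and 4.24% of all tested genes), with a median of -0.14, which was -0.08 without CDD replicate 2. Between 1 and 4 fell when a brain was left out, with 1 without CDD replicate 4 or ND replicate 3. *Neurod2*, a neuronal bHLH factor, was at -0.20 (edgeR adjusted p = 0.0338, lost without any brain other than CDD replicate 3), *Mpped1* at -0.38 (lost without CDD replicate 4 or ND replicate 3) and *Sla* at -0.70 (lost without CDD replicate 4). *Neurod6*, at -0.10, and *Emx1*, at 0.12, did not pass, with adjusted p of 0.254 and 0.291 in edgeR's test. Taken relative to the mean log2 CPM of these 8 genes, 8 of the 9 identity genes had the higher mean in CDD brains, and so had 82.0% of all tested genes. *Bcl11b*, *Tbr1* and *Sox5* were higher without overlap on this scale, by 0.21, 0.26 and 0.30 (3 of 9 genes, against 13.4% of all tested genes), and *Fezf2* differed by -0.0048 with overlap. The mean of the reference genes was 6.54 ± 0.14 log2 CPM in CDD and 6.72 ± 0.05 in ND brains (SD, n = 4 each), with overlap, and a lower reference raises the other genes on this scale.

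Of 9 paralogs of the identity genes, 1 rose (*Sox6*, log2 fold change 0.30) and 1 fell (*Pou3f1*, -0.20), where 4.24% and 4.59% of all tested genes did, and the median was 0.11. *Sox6* and *Sox5* were both above 0. *Pou3f1*, *Pou3f2* and *Pou3f3* were below it in the fit of all 8 brains (*Pou3f3* was at 0.000558 without CDD replicate 2). *Pou3f4* went the other way, at 0.11 (edgeR adjusted p = 0.276), so the POU genes did not share a direction. Of these POU genes, only *Pou3f1* passed. *Sox6* lost its call without ND replicate 1, 3 or 4, and *Pou3f1* without CDD replicate 1 or ND replicate 1, 3 or 4.

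Dorsal progenitors give rise to these neurons. Of 15 genes listed for them, 6 rose and 0 fell (4.24% and 4.59% of all tested genes), with a median of 0.21. *Nes* (0.47) and *Neurog2* (0.32) were among the 6. Which cells this RNA came from in whole brains was not measured, so the list name does not stand for dorsal progenitors alone. The 9 identity genes had a median of -0.03, beside -0.0038 over all tested genes. It was -0.20 and -0.05 for the other upper-layer and deep-layer genes and 0.21 for the progenitor list. Without CDD replicate 1 the deep-layer median was -0.02, and the order of these medians was not tested. *Tubb3*, *Dcx* and the other general neuron genes, 9 in all, had a median of -0.02. Of these, 1 was lower (*Snap25*, -0.23, lost without ND replicate 1, 3 or 4) and 0 higher (4.59% and 4.24% of all tested genes). How far the mix of progenitors and neurons entered the levels of the identity genes was not tested.

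**Figure D5:**
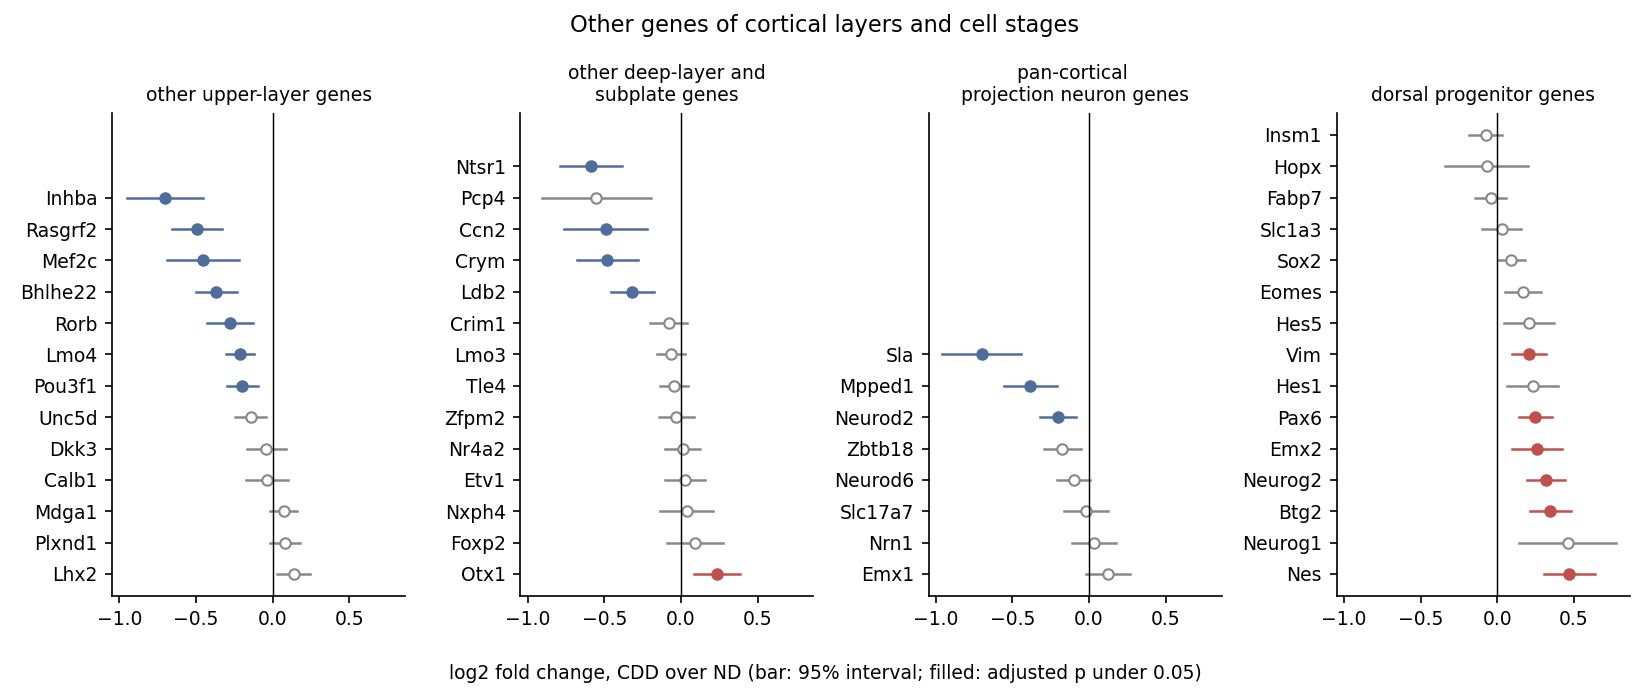
Log2 fold change of CDD over ND on the x axis, with 95% intervals, for the genes of 4 lists on the y axes; filled points passed an adjusted p of 0.05 in edgeR's test (blue lower, red higher in CDD), open points did not. Filled blue points number 7 of 13 among other upper-layer genes, 4 of 14 among deep-layer and subplate genes and 3 of 8 among pan-cortical genes, and filled red points 6 of 15 among progenitor genes and 1 of 14 among deep-layer and subplate genes.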

How the data were processed

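Poly-A RNA of 8 whole brains was measured, grouped by maternal diet as labelled (CDD 4, ND 4). As deposited by the authors, the files hold raw counts of reads for every gene, these counts divided by a size factor per library as a normalized signal, and FPKM made from that signal with a listed gene length. They also deposited their own fold changes and p-values, and shorter lists of 4584, 2324 and 2260 rows with the same counts, which were not used. The submitters' processing notes name HISAT2 2.0.5, featureCounts 1.5.0-p3 and DESeq2 1.20.0. The genome build is not given in the sources used here.

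From the counts, genes were filtered with filterByExpr (minimum count 10) of edgeR 4.0.16 in R 4.3.3, scaled by TMM, and tested by quasi-likelihood (robust) on a model of diet alone, an adjusted p under 0.05 being the threshold. Log2 CPM of scores used a prior count of 2. Python 3.11.15, pandas 2.3.3, NumPy 2.4.6 and matplotlib 3.10.9 were used. The test was also tried on simulated data. Library totals were 31770217 to 43121170 reads. No batch is named.

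The 9 genes and all other lists were chosen with earlier results of these data known, so no list was given a test or an adjustment of its own. Genes named are the 9, fixed paralogs and layer genes, and from each list the genes that passed, at most 6 by p, with further members of the upper-layer list named after their values were seen. Some listed genes are not reported here and were left out of the lists.

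Alternatives were DESeq2 1.42.0, limma-voom (limma 3.58.1), RLE and upper-quartile normalization, no filter, at least 10 counts in every sample, FPKM with a pseudocount of 1, a prior count of 0.5, an adjusted p under 0.01, *Xist* as a covariate, the replicate number as a block, and leaving out each brain or each member.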

Additional observations from a re-analysis of the deposited data

How the results depend on the processing

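The number of the 9 identity genes past the threshold was 0, and ranged from 0 to 1 when a brain was left out (*Fezf2* without CDD replicate 3, *Foxp1* without CDD replicate 4). It was 1 (*Fezf2*) with no filter on low counts. The cause was not tested. *Bcl11b* changed sign without CDD replicate 4 (-0.0204), as did *Pou3f3* without CDD replicate 2 (0.000558), neither of them called. Over the left-out brains *Bcl11b* ranged from -0.0204 to 0.0671 and *Pou3f3* from -0.0512 to 0.000558. The layer contrast of 0.0354 ranged from -0.0009 to 0.0838 over the left-out brains, beside a pooled SD of 0.0782. Among the left-out brains it exceeded that SD only without CDD replicate 2, the brain with the Hox reads. With *Fezf2* left out of the genes it was 0.101, also above that SD.

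Over all genes, 519 passed in the authors' FPKM, 477 at an adjusted p under 0.01, and from 471 to 2495 with a brain left out, lowest without ND replicate 3 (688 and 615 without ND replicates 1 and 4). Medians of lists over the left-out brains ranged from -0.0892 to -0.0173 for the other deep-layer genes, from -0.0972 to 0.0329 for striatal, from -0.0265 to 0.0296 for general neuron, from 0.0700 to 0.178 for Cajal-Retzius and from 0.12 to 1.69 for hindbrain genes, the last being lowest without CDD replicate 2.

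The labels do not say whether the replicate numbers pair the brains. Deviations from the diet means correlated at 0.105, -0.133, 0.117 and 0.232 between brains of the same number. Between brains of different numbers they correlated at -0.25 to 0.214. So few brains cannot settle whether they were paired. With the number as a block, 1812 genes passed (1710 without it) and 0 of the 9 did. The adjusted p of *Fezf2* was then 0.0555 in edgeR's test, against 0.213 without the block. With 4 brains per diet, the 95% intervals of the 9 genes reach from -21.8% (*Fezf2*) to 21.3% (*Sox5*).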

Other observations

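Paralogs of the 9 genes were also read. Of 9 paralogs, 1 rose and 1 fell (*Pou3f1*, -0.20), where 4.24% and 4.59% of all tested genes did, with a median of 0.11. *Sox6*, the paralog of *Sox5* found in progenitors, was at 107.4 ± 13.0 CPM in CDD and 87.3 ± 3.77 CPM in the ND group (SD, n = 4 each), which is a log2 fold change of 0.30 (edgeR adjusted p = 0.0172), lost without ND replicate 1, 3 or 4. *Bcl11a*, at 0.00, *Fezf1*, at 0.20, *Pou3f4*, at 0.11, and *Foxp4*, at -0.09, did not pass, with adjusted p of 0.973, 0.143, 0.276 and 0.182 in edgeR's test. *Eomes* (Tbr2), the relative of *Tbr1* in intermediate progenitors, was at 109.9 ± 10.6 CPM in CDD and 97.7 ± 2.87 CPM in the ND group (SD, n = 4 each), which is a log2 fold change of 0.17 (edgeR adjusted p = 0.0687).

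Genes listed for the dorsal progenitors that give rise to these neurons were higher in part. Which cells of the whole brain their RNA came from was not measured. Of 15 such genes, 6 rose and 0 fell (4.24% and 4.59% of all tested genes), with a median of 0.21. *Nes*, an intermediate filament gene of neural stem cells, was at 320.9, 365.2, 331.5 and 425.0 CPM in CDD brains and at 261.1, 282.8, 250.9 and 245.7 CPM in ND brains. The log2 fold change of *Nes* was 0.47 (edgeR adjusted p = 0.00344), and that of *Neurog2*, the proneural factor of cortical progenitors, was 0.32 (edgeR adjusted p = 0.00475). *Btg2* was at 0.35 and *Pax6* at 0.25, and these 4 calls held in all 8 fits that left out 1 brain. *Vim*, at 0.21, lost its call without ND replicate 1, 3 or 4, and *Emx2*, at 0.26, kept it only without CDD replicate 2 or 4. The diets did not overlap in the mean log2 CPM of the 15 genes, at 6.07 ± 0.04 in CDD and 5.88 ± 0.06 in ND brains (SD, n = 4 each).

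Neurons outside the cortical projection class were read from lists of the same kind. Over all tested genes 4.59% fell and 4.24% rose, the shares to set beside each count below. Of 13 striatal genes, 2 fell (*Adora2a* and *Ikzf1*, log2 fold changes of -0.47 and -0.43) and 1 rose (*Ebf1*, 0.24, lost without any brain other than CDD replicate 3), with a median of -0.02. The call of *Ikzf1* was lost without ND replicate 3. *Isl1*, a striatal and motor neuron factor, was at 0.10 with an adjusted p of 0.293 in edgeR's test. Of 9 GABAergic interneuron genes, *Gad2* (0.16) and *Nkx2-1* (0.24) rose and *Lhx6* (-0.22) fell, and *Nkx2-1* lost its call without ND replicate 1, 3 or 4. When 1 brain was left out, *Gad2* passed only without CDD replicate 2 or 3, and *Lhx6* only without CDD replicate 3 or 4. Of 7 Cajal-Retzius genes, *Lhx1* (0.29) and *Nhlh2* (0.30) rose and *Calb2* (-0.32) fell, while *Reln*, the secreted signal of these cells, was at -0.14 with an adjusted p of 0.199 in edgeR's test. *Lhx1* lost its call without ND replicate 1 or 3.

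Of 7 thalamus and midbrain genes, *Gbx2* (0.45) and *Tcf7l2* (0.17) rose and *Barhl1* (-0.36) fell (4.24% and 4.59% of all tested genes). *Gbx2* lost its call without CDD replicate 2 or ND replicate 1, 3 or 4, *Tcf7l2* without CDD replicate 3 or 4 or ND replicate 1, 3 or 4, and *Barhl1* without CDD replicate 1 or any ND brain. Of 10 hindbrain and spinal cord genes, 3 were tested, with edgeR adjusted p between 0.376 and 0.474. Of 9 erythroid genes, the embryonic globin genes *Hbb-y* (2.24) and *Hba-x* (1.67) rose and 0 fell (4.24% and 4.59% of all tested genes). The list median was -0.50, and 5 of the 9 genes were below 0 without passing. *Hbb-bh1*, at 0.91, did not pass either (edgeR adjusted p = 0.141). *Hba-x* lost its call without ND replicate 1 or 4. The summed level of this list was highest in ND replicate 3 at 2985 CPM.

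Over the 8 brains, after removal of the diet means, the genes most like the mean of the 4 deep-layer genes among 12324 compared were *Nr4a3* (Pearson r of 0.973), *Med13l* (0.971) and ENSMUSG00000120451 (0.971). Those most like the upper-layer mean were *Fam168b* (0.995), *Sort1* (0.989) and *Hnrnpul1* (0.986). The deep-layer mean had an SD of 0.14 in CDD and 0.01 in ND brains, and the upper-layer mean 0.07 and 0.02. The r values therefore rest mostly on the 4 CDD brains. Since these genes were picked as the highest of 12324, a high r was selected for. These values are a description over the 8 libraries and have no test.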
